A study of Homo sapiens with 6 samples.

Results

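Of the 58825 genes measured in NCI-H460 lung cancer cells with and without knockdown of PRMT5, 8 forkhead transcription factors were followed here: FOXP1, FOXP2, FOXP4, FOXO1, FOXO3, FOXO4, FOXA1 and FOXA2. They were chosen by name, by a rule that uses no measured value but with earlier results of these data known, and the same data hold 49 forkhead genes in all. No member passed the adjusted threshold in edgeR. FOXP1 had the largest difference of the 6 members that could be tested, at 1.67-fold higher in PRMT5-shRNA cells, with its partner FOXP4 at 1.23-fold and FOXO3 at 1.21-fold. FOXO1, FOXO4 and FOXA1 differed by less than the spread between libraries, and FOXP2 and FOXA2 were near 0 in both groups.

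The series held 6 RNA-seq libraries of 1 line, NCI-H460, which was grown from a human lung tumour and is usually classed as large cell carcinoma, although the labels call it lung adenocarcinoma. All cells carried a lentiviral hairpin after puromycin selection: a control hairpin in the 3 NC-shRNA libraries and a hairpin against PRMT5 in the 3 PRMT5-shRNA libraries. The sample titles name GFP for the control, while the methods give a control shRNA without naming a target. The methods list 3 hairpins against PRMT5, and the labels do not say which was used, so the comparison is of 1 stable knockdown whose hairpin is not named. PRMT5 is the main enzyme that places symmetric dimethyl marks on arginine residues of histones and splicing proteins, and the experiment asked what its loss does to the transcriptome of a lung cancer cell.

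Forkhead factors bind DNA through a winged-helix domain whose recognition helix lies in the major groove and reads a core close to TGTTTAC. FOXP proteins act mostly as repressors, pair with each other through a leucine zipper, and recruit CtBP and NuRD. FOXO proteins are held in the cytoplasm by 14-3-3 proteins when PI3K and AKT are active, and otherwise enter the nucleus to raise genes of cell cycle arrest, apoptosis, antioxidant defence and autophagy. FOXA proteins are pioneer factors that open chromatin in endoderm, including lung epithelium, and FOXP1, FOXP2 and FOXP4 are all used in the developing airway. In breast cancer stem cells PRMT5 has been described as an activator of FOXP1.

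The coding sequence of the recognition helix is given for 5 of the members, because it lies where forkhead factors read DNA. The windows of 57 bases below came from GENCODE 29 transcripts on GRCh38 and are given 5′ to 3′ on the coding strand. Capitals mark the codons of the helix core that touches DNA. Each window joins 2 neighbouring exons, so its genomic span contains an intron.
FOXP2 (chr7:114659665-114662112, plus strand, exons 14 and 15): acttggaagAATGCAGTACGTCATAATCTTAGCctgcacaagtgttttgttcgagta
FOXP4 (chr6:41591314-41594917, plus strand, exons 13 and 14): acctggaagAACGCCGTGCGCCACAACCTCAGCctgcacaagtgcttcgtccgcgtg
FOXO1 (chr13:40560813-40665591, minus strand, exons 1 and 2): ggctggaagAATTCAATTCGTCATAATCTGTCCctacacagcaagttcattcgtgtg
FOXO3 (chr6:108561821-108663502, plus strand, exons 1 and 2): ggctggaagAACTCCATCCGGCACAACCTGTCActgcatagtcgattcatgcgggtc
FOXO4 (chrX:71096973-71100731, plus strand, exons 1 and 2): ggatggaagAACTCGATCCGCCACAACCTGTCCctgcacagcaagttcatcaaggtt

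FOXP2 and FOXP4 shared 44 of 57 bases and coded for the same 19 of 19 residues, so they differed only by silent base changes in this stretch. Pairs of FOXO genes shared 41 to 44 bases and 16 to 18 residues. Between a FOXO and a FOXP gene, 12 to 13 residues were the same. Among the bases in capitals alone, FOXP2 shared 18 with FOXO1 and 17 with FOXP4, so the classes were apart by residues over the whole window but not by bases in the core.

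The knockdown was checked first. PRMT5 stood at 143, 127 and 128 CPM (counts relative to the TMM-scaled library size) in NC-shRNA replicates 1, 2 and 3, and at 45.8, 45.6 and 38.3 CPM after knockdown. The groups were widely separated. The fitted log2 fold change was -1.62 ± 0.094 (SE, n = 3 per group, adjusted p = 0.0063, edgeR quasi-likelihood test with Benjamini-Hochberg adjustment). An exact two-sided permutation test of 3 against 3 libraries gave p = 0.10, which is the smallest it can give.

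Few genes passed that adjusted threshold. Of 20295 genes tested, 14 did, or 0.0690%, with 10 higher (0.0493%) and 4 lower (0.0197%) in PRMT5-shRNA cells. At an unadjusted p under 0.05, 6.54% of all genes were higher and 6.29% lower, and 11.0% had PRMT5-shRNA libraries all above the NC-shRNA libraries, against 10.7% all below. The median log2 fold change of all genes was 0.01, with 51.2% of them above 0. Between 53531257 and 70518401 counts were assigned per library. A count of 4 was more common than its neighbours, with 1214 to 1319 genes at a count of 4 and 283 to 546 at a count of 3 or 5. A count may therefore not be a single fragment. Other multiples of 4 were not looked at.

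FOXP1 is encoded on chromosome 3 (70952817 to 71583993, minus strand, GRCh38) and had 76 annotated transcripts. Its estimated counts were 627, 462 and 646 in NC-shRNA cells and 763, 1030 and 888 after PRMT5 knockdown. On the CPM scale these were 9.34, 6.66 and 10.4 against 14.0, 14.7 and 15.4. The groups did not overlap: the lowest PRMT5-shRNA library lay above the highest NC-shRNA library, and NC-shRNA replicate 2 was the lowest of the 6. The group means were 8.80 ± 1.92 and 14.7 ± 0.729 CPM (SD, n = 3 each).

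The log2 fold change of FOXP1 was 0.74 ± 0.17 (SE), with a 95% interval of 0.33 to 1.16. In edgeR its unadjusted p was 0.0039 and its adjusted p 0.21, so FOXP1 did not pass the adjusted threshold. DESeq2 did call it, at a log2 fold change of 0.73 and an adjusted p of 0.013, and called 1.38% of 17235 genes higher and 0.952% lower. The 2 tools gave nearly the same size, and the call alone depended on the tool. The exact permutation test of the 3 against 3 libraries gave p = 0.10.

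The size of the FOXP1 difference depended on the control libraries. It was 0.58 on the log2 scale without NC-shRNA replicate 2 and 0.88 without NC-shRNA replicate 3, and the other fits without 1 library lay between. Long genes were slightly higher in PRMT5-shRNA cells: the longest 10% by exon length had a median log2 fold change of 0.08 and the shortest 10% -0.07, and Spearman's rho across 20221 genes, which are not independent replicates, was 0.12. FOXP1 lay in the longest 10%, and with the length trend removed its log2 fold change was 0.57 (edgeR adjusted p = 0.29). The length used was that of all annotated exons together, 36714 bases, while the longest FOXP1 transcript has 8994. A correction with the shorter length was not run. The part of length in the result was not tested further.

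Several endothelial marker transcripts moved with the groups in the same direction as FOXP1, while ESAM was lower after knockdown (edgeR adjusted p = 0.29). Of 12 markers, 7 were at 0 in all NC-shRNA libraries and none was at 0 in all PRMT5-shRNA libraries. VWF had counts of 128, 105 and 122 in PRMT5-shRNA cells and 0 in NC-shRNA cells, KDR 12, 22 and 26, and CLEC14A 27, 31 and 15, again against 0. PECAM1 had 104, 100 and 109 counts against 30, 5 and 8. VWF passed the adjusted threshold in edgeR (adjusted p = 0.034) as 1 of the 10 genes called higher, and DESeq2 called VWF and PECAM1. Of the 8 endothelial markers tested, 5 were higher and 1 lower at an unadjusted p under 0.05 (6.54% and 6.29% of all genes). A marker at 0 in all NC-shRNA libraries could pass the filter only through its PRMT5-shRNA counts. The number higher is therefore partly set by the filter. The summed level was alike in both groups, at 60.1 to 65.9 and 61.0 to 65.6 CPM, because ESAM made up most of it. FOXP1 and FOXO genes are also transcribed in endothelium, and the part of endothelial transcripts in the differences of FOXP1, FOXP4 and FOXO3 was not tested. In bulk RNA, a change in the number of cells of a type and a change in RNA per cell cannot be told apart.

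FOXP4, on chromosome 6 (41546426 to 41602384, plus strand), codes for a repressor that can form dimers with FOXP1. It measured 23.0, 21.1 and 20.2 CPM in NC-shRNA and 27.7, 25.8 and 25.9 CPM in PRMT5-shRNA libraries. The groups again did not overlap. Its log2 fold change was 0.30 ± 0.088 (SE, edgeR adjusted p = 0.27, from an unadjusted p of 0.011). Leaving out 1 library at a time gave 0.26 to 0.36.

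FOXP2, on chromosome 7 (114086327 to 114693772, plus strand), is the FOXP gene tied to speech and to airway development. Its counts were 8, 0 and 4 in NC-shRNA and 8, 12 and 19 in PRMT5-shRNA libraries, 12 and 39 in sum. On the CPM scale the PRMT5-shRNA libraries lay above the others, from 0.147 to 0.330 against 0 to 0.119, but the filter on low counts removed the gene. A fit without the filter gave a log2 fold change of 1.79 with an unadjusted edgeR p of 0.18. A count of 8 in 1 library of each group and the excess of genes at a count of 4 leave no detectable difference at this depth.

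**Figure D1:**
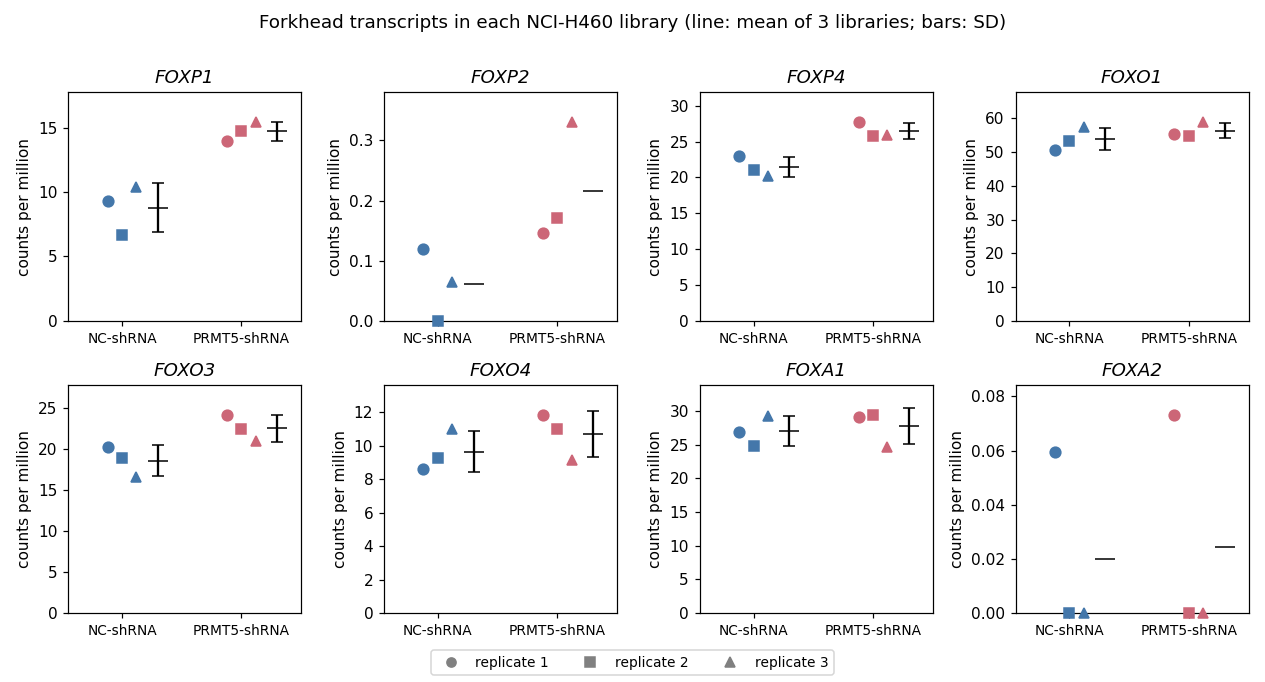
CPM (vertical axis, from 0) of the 8 forkhead transcripts in each NC-shRNA and PRMT5-shRNA library, with the mean as a line and SD bars for the 6 tested members (n = 3). FOXP1, FOXP4 and FOXO3 have PRMT5-shRNA libraries all above the NC-shRNA libraries, FOXO1, FOXO4 and FOXA1 overlap, and FOXP2 and FOXA2 rest on at most 19 counts per library.

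FOXO3, on chromosome 6 (108559835 to 108684774, plus strand), is the FOXO factor best known for raising apoptosis and autophagy genes. It measured 20.2, 18.9 and 16.5 CPM in NC-shRNA and 24.2, 22.5 and 20.9 CPM in PRMT5-shRNA libraries. The groups did not overlap, though PRMT5-shRNA replicate 3 and NC-shRNA replicate 1 were close. Its log2 fold change was 0.28 ± 0.11 (SE, edgeR adjusted p = 0.37, from an unadjusted p of 0.041), and with the length trend removed it was 0.23 with an unadjusted p of 0.090.

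FOXO3 has a processed copy, FOXO3B, on another chromosome, and the 2 share sequence. Of the 50-base words in annotated FOXO3B transcripts, 64.2% also occur in FOXO3 transcripts, which is 15.7% of the FOXO3 words. FOXO3B counts were 146, 193 and 183 in NC-shRNA and 169, 181 and 54 in PRMT5-shRNA libraries, so PRMT5-shRNA replicate 3 was low. With both genes summed, the log2 fold change was 0.22, with an unadjusted edgeR p of 0.089. Reads in the shared stretch could be counted for either gene. The FOXO3 value is uncertain for that reason, and the sum does not bound the error.

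FOXO1, on chromosome 13 (40469953 to 40666597, minus strand), mediates much of the insulin and growth factor response of FOXO factors. It measured 50.7, 53.3 and 57.3 CPM in NC-shRNA and 55.4, 54.6 and 58.8 CPM in PRMT5-shRNA libraries, and the groups overlapped. Its fold change on the log2 scale was 0.07, with a 95% interval of -0.11 to 0.24. Its exons touch those of LINC00598 on the same strand, which had 38 to 108 counts against 3021 to 3822 for FOXO1.

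FOXO4, on chromosome X (71096197 to 71103535, plus strand), had the fewest counts of the 3 FOXO members; it, too, is an AKT substrate. It measured 8.62, 9.26 and 11.0 CPM in NC-shRNA and 11.8, 11.0 and 9.16 CPM in PRMT5-shRNA libraries. The groups overlapped, and the log2 fold change was 0.15 with a 95% interval of -0.21 to 0.50. A difference of the size seen for FOXP4 or FOXO3 lies inside that interval.

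FOXA1, on chromosome 14 (37589984 to 37596059, minus strand), is a pioneer factor of lung, breast and prostate epithelium. It measured 26.9, 24.8 and 29.3 CPM in NC-shRNA and 29.2, 29.5 and 24.6 CPM in PRMT5-shRNA libraries. The groups overlapped fully. Its log2 fold change was 0.04, with a 95% interval of -0.21 to 0.29, and its sign turned when replicate 2 of either group was left out (-0.02 and -0.0063). TTC6, whose exons lie opposite those of FOXA1, had 43 to 134 counts.

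FOXA2, on chromosome 20 (22581005 to 22585455, minus strand), had 4 counts in replicate 1 of each group and 0 in the other 4 libraries. Such a level is near 0, and no difference was detectable. FOXA1 was therefore the FOXA gene that these cells transcribed at a measurable level.

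Of the 8 members, 6 passed the filter on low counts, and 2, FOXP2 and FOXA2, did not. All 6 log2 fold changes were above 0, from 0.04 to 0.74, with a median of 0.21 beside 0.01 for all genes. At an unadjusted p under 0.05, 3 of the 6 were higher and none lower, where 6.54% and 6.29% of all genes were. The members had been proposed with such results in view, so these counts are a description. None passed the adjusted threshold in edgeR (0.0690% of all genes), and DESeq2 called 1, FOXP1.

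The FOXP1 difference was also read against the other members within each library. The ratio of FOXP1 to FOXO1 CPM was 0.184, 0.125 and 0.181 in NC-shRNA and 0.253, 0.269 and 0.262 in PRMT5-shRNA libraries. The ratios to FOXO1, FOXO4 and FOXA1 did not overlap between the groups, with an exact permutation p of 0.10 each, the smallest possible, and 0.17 after adjustment over the 5 ratios. The ratios to FOXP4 and FOXO3 overlapped, with an exact permutation p of 0.20 each. With 3 libraries per group this test cannot give a p under 0.05. It could therefore not separate the FOXP1 difference from that of any of the 5 members.

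**Figure D2:**
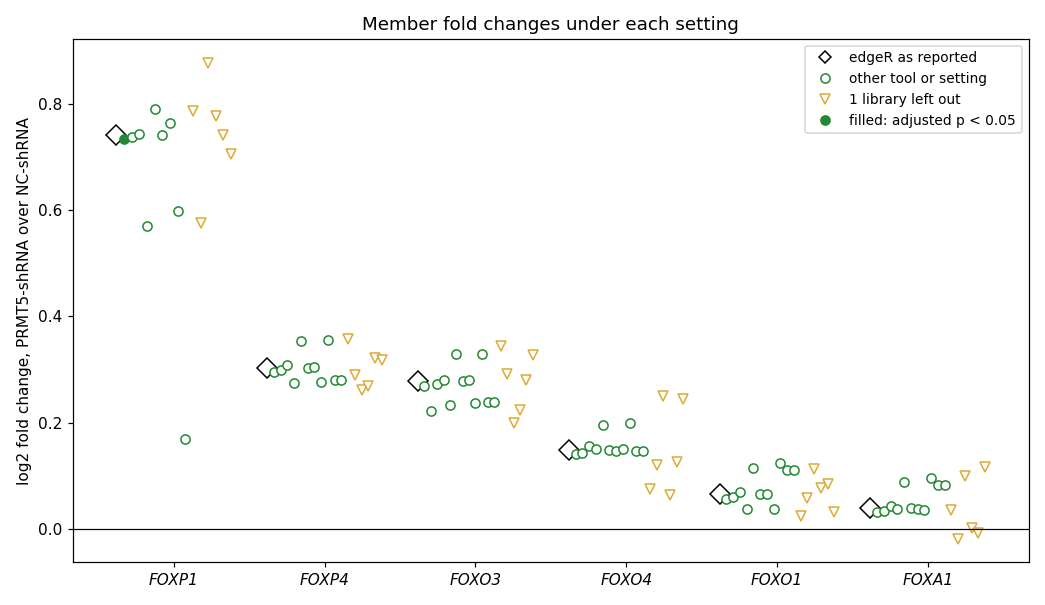
Log2 fold change of PRMT5-shRNA over NC-shRNA (vertical axis) for the 6 tested members, with the reported edgeR value as a diamond, other tools and settings as circles and fits without 1 library as triangles; filled marks have an adjusted p under 0.05. The DESeq2 value of FOXP1 is the single filled mark, and the FOXP1 circle at 0.17 is the fit on log2(FPKM + 1), which understates a gene with an FPKM of 0.275.

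Levels of different genes were compared only per length. By the deposited FPKM, averaged over the 6 libraries, FOXO1 was highest at 7.51, followed by FOXA1 at 5.30, FOXP4 at 3.32, FOXO4 at 2.52 and FOXO3 at 2.30 FPKM. FOXP1 was far lower at 0.275 FPKM, from 0.15 to 0.37. FOXP2 and FOXA2 averaged 0.0083 and 0.0067 FPKM. FOXO1, FOXA1 and FOXP4 had ranges that did not touch. FOXP4 and FOXO4 overlapped in range, although FOXP4 was the higher in all 6 libraries. FOXO4 and FOXO3 were not separated, with FOXO4 higher in 4 of 6, and neither were FOXP2 and FOXA2.

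The low FPKM of FOXP1 rests largely on the length used. All annotated FOXP1 exons together cover 36714 bases, while its longest coding transcript has 8994, and the deposited FPKM values are close to those obtained with the full exon length. FOXO3 was 8.35 times FOXP1 by FPKM. Per kilobase of the longest coding transcript, FOXO3 had 2.80 and FOXP1 1.31 CPM. FOXP1 remained the lowest of the 6 tested members by either length, and FOXO1 (9.59) and FOXA1 (9.56 CPM per kilobase) became nearly equal.

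**Figure D3:**
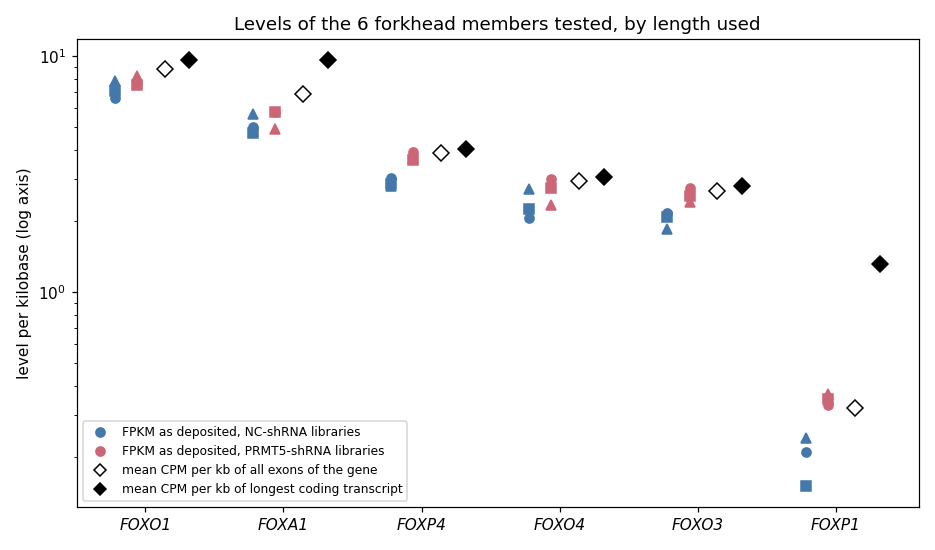
Level per kilobase (vertical log axis) of the 6 tested members: deposited FPKM in each NC-shRNA and PRMT5-shRNA library, and mean CPM per kilobase of all exons (open diamonds) or of the longest coding transcript (filled diamonds). FOXP1 moves from 0.32 to 1.31 CPM per kilobase with the shorter length, the largest shift of the 6.

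Of 6 annotated genes that overlap FOXP1, 4 were looked at, and they held few reads. AC097634.4, annotated on the same strand with exons that touch those of FOXP1, had 13, 0 and 1 counts in PRMT5-shRNA replicates 1, 2 and 3 and 0 in all control libraries. FOXP1-AS1 and AC097634.3 were at 0 throughout, and FOXP1-IT1 had 4 counts in 1 library of each group. EIF4E3, the neighbouring translation factor gene, measured 7.35 ± 0.716 and 8.69 ± 0.591 CPM (SD, n = 3 each, edgeR adjusted p = 0.47). The counts of these 4 overlapping genes were small beside those of FOXP1.

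By pattern over the 6 libraries, HAS2 was most like FOXP1, with a Pearson r of log2 CPM of 0.993 among 10486 genes with a mean log2 CPM over 3. CRKL (0.984), KIFC3 (0.982), DESI2 (0.982) and PRKD2 (0.979) followed. Among the members, r with FOXP1 was 0.80 for FOXP4, 0.59 for FOXO3, 0.57 for FOXO1, 0.45 for FOXO4 and 0.36 for FOXA1. All points share the contrast between the groups and the library scaling, so these values are a description of likeness over 6 points. The 5 genes most like FOXP1 had log2 fold changes from 0.12 to 0.35, smaller than that of FOXP1.

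RefSeq promoters (GRCh38.p14) were found for 7 of the 8 members, FOXA2 being without an entry. They gave 16 windows of 250 bases before a start. FOXP1 alone had 6 annotated starts, whose windows ran from 38.8% to 75.6% GC. The forkhead core TGTTTAC, searched on both strands (GTAAACA on the other), occurred in 1 of the 16, before the fourth FOXP1 start (chr3:71245078-71245327, minus strand). Of all 35116 promoter windows of this length, 2.98% held it. The estimated counts are per gene and do not say which FOXP1 start was used.

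Across the whole forkhead family, 31 of 49 genes were tested and 5 were at 0 in every library. None passed the adjusted threshold in edgeR. At an unadjusted p under 0.05, 4 were higher (FOXP1, FOXP4, FOXO3 and FOXQ1) and 0 lower, beside 6.54% and 6.29% of all genes. The PRMT5-shRNA libraries lay all above the NC-shRNA libraries for 7 and all below for 0, beside 11.0% and 10.7% of all genes. The median log2 fold change was 0.09, with 23 genes above 0. DESeq2 called 2 family genes, FOXP1 and FOXQ1, both higher.

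FOXQ1, an epithelial forkhead factor, measured 15.8, 16.4 and 14.7 CPM in NC-shRNA and 22.5, 21.5 and 20.4 CPM in PRMT5-shRNA libraries. The groups were well separated, at a log2 fold change of 0.46 ± 0.093 (SE, edgeR adjusted p = 0.18, from an unadjusted p of 0.0017). It was the forkhead gene with the smallest p. Averaged over both groups, its level of 5.99 FPKM was above that of every member but FOXO1. In NC-shRNA libraries alone, FOXA1 averaged more, at 5.12 FPKM against 4.92 for FOXQ1.

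FOXM1, the forkhead activator of mitotic genes, had the highest mean of the forkhead transcripts at 15.6 FPKM, but it was above FOXK2 in only 3 of 6 libraries. It measured 61.2, 130 and 85.9 CPM in NC-shRNA and 63.5, 132 and 63.0 CPM in PRMT5-shRNA libraries, so replicate 2 was the highest in both groups. FOXM1 differed by -0.10 on the log2 scale (edgeR adjusted p = 0.93). FOXK2 at 11.3 FPKM had groups that did not overlap but differed little, by 0.09 on the log2 scale (edgeR adjusted p = 0.51), and FOXF2 at 10.1 FPKM had overlapping groups and 0.20 (adjusted p = 0.44). By FPKM the 8 members ranked 6, 9, 15, 17, 20, 24, 40 and 42 among the 49 family genes.

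**Figure D4:**
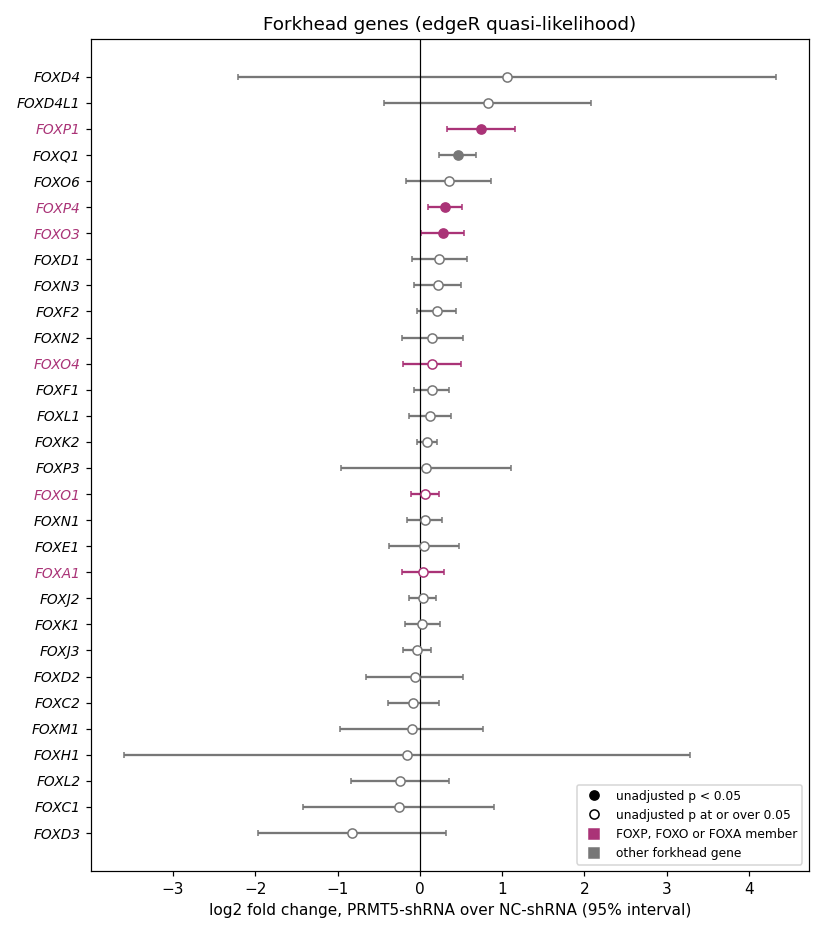
Log2 fold change of PRMT5-shRNA over NC-shRNA with its 95% interval (horizontal axis) for 30 forkhead genes tested, ordered by size, with members coloured and filled points for an unadjusted p under 0.05. FOXP1, FOXQ1, FOXP4 and FOXO3 are the 4 filled points; FOXD4 and FOXD4L1 lie further right with intervals that cross 0.

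Of 18 genes listed as non-coding and named after or lying near forkhead genes, 15 were found in the files and 8 were tested. FOXO3B and FOXL2NB were among those tested. Whether each listed gene is annotated as non-coding was not checked. None passed the adjusted threshold in edgeR, and DESeq2 called FENDRR alone. FENDRR, the long non-coding RNA next to FOXF1, was the 1 with an unadjusted p under 0.05, beside 12.8% of all genes. It measured 21.3, 26.4 and 28.9 CPM in NC-shRNA and 38.4, 36.5 and 37.8 CPM in PRMT5-shRNA libraries, without overlap. FENDRR had a log2 fold change of 0.56 ± 0.12 (SE, edgeR adjusted p = 0.20, from an unadjusted p of 0.0025).

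The FOXO regulators comprised PI3K and AKT kinases, 14-3-3 proteins, ubiquitin ligases and acetyltransferases, and all 35 were tested. None passed the adjusted threshold in edgeR, and DESeq2 called 1, SFN, lower. At an unadjusted p under 0.05, 3 were higher and 4 lower, beside 6.54% and 6.29% of all genes, and 3 and 6 had groups that did not overlap, beside 11.0% and 10.7%. The median was -0.01. YWHAE, a 14-3-3 protein, was at 518 ± 14.9 and 442 ± 11.8 CPM in NC-shRNA and PRMT5-shRNA cells (log2 fold change -0.23, adjusted p = 0.20). SFN, the epithelial 14-3-3 sigma, was at 114 ± 16.0 and 85.2 ± 2.45 CPM (-0.42, adjusted p = 0.22). SKP2, the ligase subunit that marks FOXO1 and p27 for degradation, was at 65.1 ± 0.537 and 53.3 ± 5.2 CPM (-0.29, adjusted p = 0.26). PIK3CA, the catalytic PI3K subunit, was at 18.7 ± 1.01 and 22.7 ± 0.388 CPM (0.28, adjusted p = 0.29). These 4 had groups that did not overlap.

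Of 37 genes widely described as FOXO targets, 34 were tested. None passed the adjusted threshold in edgeR, and DESeq2 called 3, TXNIP, GADD45A and ULK1, all higher. At an unadjusted p under 0.05, 7 of the 34 were higher and 3 lower, beside 6.54% and 6.29% of all genes. The PRMT5-shRNA libraries lay all above for 13 and all below for 4, beside 11.0% and 10.7%, so the number below was near that of all genes. The median log2 fold change was 0.16, and 23 of 34 were above 0.

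TXNIP, the thioredoxin inhibitor, had the smallest p of these targets. It measured 72.6, 73.1 and 74.7 CPM in NC-shRNA and 97.4, 105 and 95.7 CPM in PRMT5-shRNA libraries. The groups were far apart relative to their spread, at a log2 fold change of 0.44 ± 0.061 (SE, edgeR adjusted p = 0.10, from an unadjusted p of 2.0e-04). ULK1, the kinase that starts autophagy, was at 49.3 ± 0.637 and 60.7 ± 2.08 CPM (0.30, adjusted p = 0.18). GADD45A, a DNA damage and arrest gene, was at 18.6 ± 0.840 and 26.3 ± 2.61 CPM (0.50, adjusted p = 0.18). CCND1, the cyclin that FOXO factors repress, was at 165 ± 7.56 and 140 ± 6.50 CPM (-0.24, adjusted p = 0.24).

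The cell cycle inhibitors CDKN1A and CDKN1B, textbook FOXO targets added here after their values were seen, had log2 fold changes of 0.10 and 0.04 with edgeR adjusted p of 0.61 and 0.85. GABARAPL1, an autophagy gene, stood at 36.8, 33.8 and 144 CPM in PRMT5-shRNA and 24.8 to 32.9 CPM in NC-shRNA libraries, with PRMT5-shRNA replicate 3 far above all others. It too was named after its values were seen.

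Many FOXA targets and lung partners were not transcribed. Of 25 listed genes, 12 were tested and 8 were at 0 in every library, and none passed the adjusted threshold in edgeR. At an unadjusted p under 0.05, 1 of the 12 was higher and 1 lower, near the 6.54% and 6.29% of all genes, and the median was 0.07. DESeq2 called AGR2 alone. AGR2, a secretory protein folding enzyme that FOXA factors activate and FOXP factors repress in airway, was listed under both. It measured 213, 197 and 194 CPM in NC-shRNA and 155, 160 and 141 CPM in PRMT5-shRNA libraries, without overlap. AGR2 had a log2 fold change of -0.40 ± 0.070 (SE, edgeR adjusted p = 0.16, from an unadjusted p of 7.2e-04). CEBPA, a lung and liver differentiation factor, was at 2.71 ± 0.154 and 3.70 ± 0.464 CPM (0.45, adjusted p = 0.33).

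Of 17 corepressors and partners of FOXP proteins, 16 were tested, with 3 higher and 1 lower at an unadjusted p under 0.05 (6.54% and 6.29% of all genes) and none past the adjusted threshold in edgeR, DESeq2 or limma. The median was -0.01. GATAD2A, a NuRD subunit, was at 94.1 ± 1.77 and 70.8 ± 11.1 CPM (-0.41, adjusted p = 0.25), with PRMT5-shRNA replicate 1 nearest to the controls. NFATC2, which binds DNA together with FOXP proteins, was at 4.21 ± 0.762 and 6.37 ± 1.36 CPM (0.60, adjusted p = 0.32).

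Of 17 genes described as FOXP targets, 12 were tested, with 2 higher and 1 lower at an unadjusted p under 0.05 (6.54% and 6.29% of all genes) and none past the adjusted threshold in edgeR. DISC1, a neuronal scaffold gene repressed by FOXP2, measured 3.02, 4.23 and 2.70 CPM in NC-shRNA and 6.29, 7.16 and 7.01 CPM in PRMT5-shRNA libraries. The groups did not overlap, and the log2 fold change was 1.04 ± 0.20 (SE, edgeR adjusted p = 0.17, from an unadjusted p of 0.0012). AGR2, given above, was the lower gene. DESeq2 called both, in these directions. The median of the list was 0.10. Limma on log2 FPKM values called no gene of the 7 lists, with or without its filter.

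**Figure D5:**
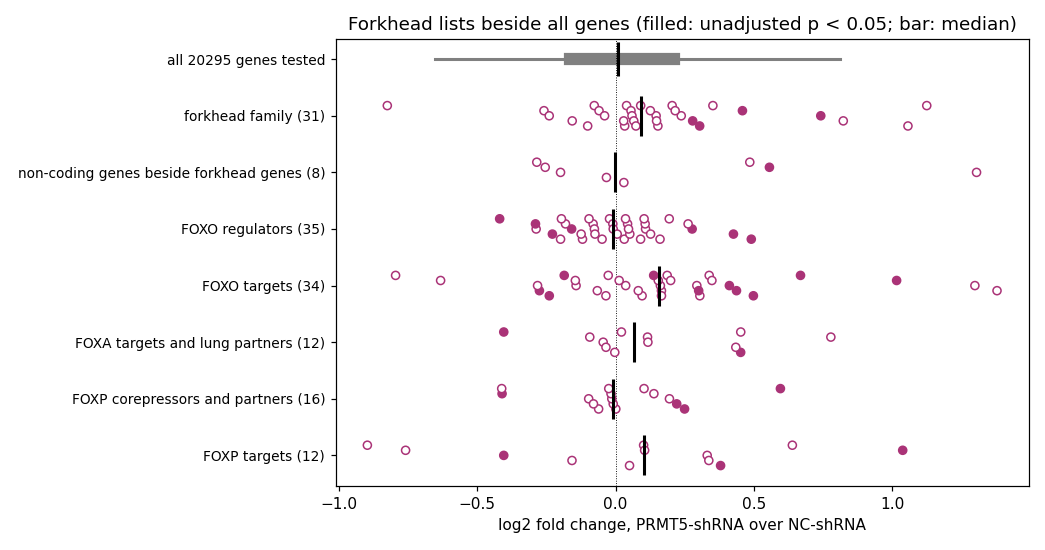
Log2 fold change of PRMT5-shRNA over NC-shRNA (horizontal axis) for the tested genes of the 7 forkhead lists, each point 1 gene, filled where the unadjusted p is under 0.05, with list medians as vertical bars; the top row gives all 20295 genes as median, quartiles (thick) and the range from percentile 5 to 95 (thin). The medians of FOXO targets (0.16), FOXP targets (0.10) and the forkhead family (0.09) lie to the right of that of all genes (0.01). That of FOXA targets and lung partners (0.07) does so too.

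Cell identity was checked from marker lists. The 6 epithelial markers summed to 1753 to 1879 CPM in NC-shRNA and 1523 to 1650 CPM in PRMT5-shRNA libraries. Of these, 5 had log2 fold changes below 0 and 1 above, with a median of -0.14. The PRMT5-shRNA libraries lay all below for 2 and all above for 0, beside 10.7% and 11.0% of all genes. At an unadjusted edgeR p under 0.05, 1 was lower and 0 higher (6.29% and 6.54% of all genes). None passed the adjusted threshold in edgeR. The 6 lung adenocarcinoma and alveolar markers, with NKX2-1 and the surfactant genes among them, summed to under 0.86 CPM in every library, and 2 of them were at 0 throughout, so the defining markers of the labelled adenocarcinoma were absent or near 0. Fibroblast markers summed to 120 to 144 and 112 to 135 CPM, most of it from DCN, and 2 of the 6 tested were higher at an unadjusted p under 0.05 (6.54% of all genes). COL3A1 measured 7.46, 7.66 and 8.72 CPM in NC-shRNA and 15.5, 12.7 and 15.5 CPM in PRMT5-shRNA libraries, 0.87 higher on the log2 scale (adjusted p = 0.11 in edgeR), and DESeq2 called it. PDGFRB measured 4.20, 3.42 and 4.07 against 5.64, 5.45 and 6.31 CPM, 0.57 higher on that scale (edgeR adjusted p = 0.23). Both moved in the direction of FOXP1 without overlap between the groups, and their part in the member differences was not tested. Blood cell markers summed to 18.7 to 23.6 and 17.0 to 19.3 CPM.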

How the data were processed

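RNA-seq of 6 NCI-H460 libraries, 3 NC-shRNA and 3 PRMT5-shRNA, was analysed, with groups and replicate numbers taken from the labels. According to the methods and the submitters' processing notes, the authors trimmed reads with cutadapt 1.9, aligned them with HISAT2 2.0.4 and estimated expression with StringTie 1.3.4d. The authors deposited estimated counts per gene without normalization, which were whole numbers already, and FPKM values, which are scaled to length and depth. The labels name GRCh38. The strand setting of the counting is not given in the sources used here, so reads of overlapping genes on either strand may be shared. The paper's results describe 3 biological replicates of stably transfected cells, and p-values measure the spread between these libraries. They do not cover the spread between separately made knockdown lines or between hairpins. Any other difference between the control and knockdown cells cannot be told apart from the knockdown.

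Counts were scaled by TMM, filtered with filterByExpr by group and tested with edgeR 4.0.16 (quasi-likelihood test, Benjamini-Hochberg over all genes tested) in R 4.3.3. The test was planned for counts and was kept for estimated counts. Standard errors were derived from the F statistic. DESeq2 1.42.0 and limma 3.58.1, the latter on log2(FPKM + 1) or log2(FPKM + 0.1), were alternatives, as were other scalings, filters, a replicate block, a length correction and fits without 1 library. Single genes and ratios had exact two-sided permutation tests (SciPy 1.17.1). Of the 58825 identifiers, 58552 matched GENCODE 29. The fits were tested on simulated counts. No library was a duplicate (chi-square per degree of freedom between any pair of 41.1 or more).

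The members and lists were chosen with earlier results of these data known. The genes named were PRMT5, the 8 members, other forkhead genes with an unadjusted p under 0.05 and the 3 most abundant others, up to 4 genes per list with the smallest p under 0.05 and groups that did not overlap, and the 5 genes most like FOXP1. Some items are not reported here.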

Additional observations from a re-analysis of the deposited data

How the results depend on the processing

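Over the alternatives run, the log2 fold changes of FOXP1 (0.17 to 0.88), FOXP4 (0.26 to 0.36), FOXO3 (0.20 to 0.34), FOXO1 (0.02 to 0.13) and FOXO4 (0.07 to 0.25) stayed above 0. FOXP1 had an unadjusted p under 0.05 in all 15 alternatives that tested it, FOXP4 in all 17 and FOXO3 in 12 of 18; limma with a mean FPKM of at least 0.5 did not test FOXP1. The adjusted p of FOXP1 ran from 0.013 (DESeq2, 0.73, the 1 alternative that called it) to 0.46. FOXA1 turned to -0.018 without NC-shRNA replicate 2 and -0.0063 without PRMT5-shRNA replicate 2. FOXP2 and FOXA2 were given by their counts and had no alternatives but the fit without a filter. Genes called higher and lower numbered 237 and 164 with DESeq2, and 1 gene was called higher by limma on log2(FPKM + 1) with no filter; without 1 library they numbered 4 to 16 and 3 to 10, and the cause was not tested.

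Replicate numbers 1 to 3 recur in the labels of both groups. Deviations of same-numbered libraries correlated at 0.0349, -0.0103 and -0.015, and 2 of 6 libraries correlated best with their own number. No strong effect shared by number was seen across genes. This check cannot tell whether same-numbered libraries were handled together, and the labels do not say. With the replicate block, PRMT5 was at -1.62 with an adjusted p of 0.14 (0.10 with the length trend also removed, an alternative added after seeing the data, at -1.62). Under either fit 0 genes were called higher and 0 lower by edgeR, with 2382 and 2473 at an unadjusted p under 0.05. The block changed no member's call. The sum of FOXO3 and FOXO3B was also added after seeing the data.

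List medians depended on scaling. The forkhead family was at 0.14 with library size only, 0.12 with the block, 0.13 with block and length trend, 0.15, 0.14 and 0.058 with limma at a pseudocount of 0.1, of 1 and of 1 without a filter (which gave 7 genes with an unadjusted p under 0.05 and higher), and 0.084 to 0.13 without 1 library. FOXO regulators were at -0.058 with the length trend removed, 0.040 with library size only, -0.051 with block and length, and 0.058, 0.046 and 0.051 with limma in that order. FOXO targets were at 0.10, 0.21 and 0.10 in the first 3 of these, 0.19 and 0.10 with limma at 0.1 and without a filter, and 0.10 to 0.15 without 1 library. FOXP corepressors were at 0.038 with library size only, 0.047, 0.045 and 0.042 with limma, and -0.030 to 0.041 without 1 library. FOXP targets were at 0.018 with limma without a filter and 0.072 to 0.21 without 1 library; the latter range was 0.033 to 0.30 for the FOXA list and -0.063 to 0.10 for the non-coding genes. Under library size only the median of all genes was 0.06. The low counts, with an excess of genes at a count of 4, limit what can be said of FOXP2 and FOXA2.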
